A study of Mus musculus with 2 samples.

Results

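The cells described here are the proliferating cells among the ventricular non-myocytes of 2 adult mice, picked out by the summed UMIs (unique molecular identifiers, each a tag for 1 captured RNA molecule) of Mki67, Top2a, Birc5, Ube2c and Cdk1. A barcode was kept with at least 500 UMIs and at most 10% mitochondrial UMIs, and counted as cycling with at least 4 UMIs of these 5 genes. Of 12951 kept cells, 184 were cycling, with 93 of 7015 in mouse 1 and 91 of 5936 in mouse 2. Each cycling cell was then given a lineage from a few further genes. Macrophage lineage needed at least 15 UMIs of C1qa, C1qb and C1qc. Fibroblast lineage needed at least 5 of Dcn, endothelial lineage at least 2 of Pecam1, Cdh5 and Egfl7, and T cell lineage at least 2 of Cd3d, Cd3e and Cd3g. Cells that met no lineage rule, or more than 1, formed classes of their own.

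Both mice were wild-type C57BL/6 animals of 10 to 12 weeks, kept under standard conditions and forming 1 group with no treatment. Hearts were perfused on a Langendorff apparatus, the atria removed, the ventricles dissociated, the myocytes spun out and the red cells lysed, and live cells that excluded a dead-cell dye were sorted into droplets, so every share below is a share of what survived that preparation. The tables held 7732 and 6367 barcodes, with 21355383 and 15174548 UMIs. With 1 library per mouse, the spread between mice and between libraries cannot be told apart. The libraries had 65 barcode sequences in common, 58 of them kept in both, and none was cycling in both.

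A dividing cell copies its DNA in S phase, condenses and separates its chromosomes in mitosis and then divides, and each step draws on its own set of genes, which are largely silent in resting cells. Cyclins and the kinase Cdk1 drive entry into mitosis, Top2a untangles the copied DNA, Birc5 is part of the complex that corrects chromosome attachment, Ube2c serves the anaphase-promoting complex that starts mitotic exit, and Mki67 coats mitotic chromosomes. Resident macrophages of the heart are known to maintain themselves largely by local division, while fibroblasts and endothelial cells of the healthy adult heart divide rarely.

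The 5 genes set the choice of cells, so their levels are a description. In mouse 1 the cycling cells held 167 UMIs of Mki67, 357 of Top2a, 297 of Birc5, 251 of Ube2c and 165 of Cdk1. In mouse 2 they held 149, 377, 405, 399 and 220 UMIs of the same genes. Birc5 was seen in the most cells, 92.5% and 95.6% of the cycling cells, and Mki67 in 74.2% and 73.6%. Among the other kept cells, the share with any UMI lay between 0.188% (Mki67, mouse 1) and 0.873% (Cdk1, mouse 2). The gap around the threshold was thinly filled. Just inside it, 4 and 6 cells had 4 UMIs, and just outside it, 8 and 7 cells had 3 UMIs, while 70 and 66 cells had 8 or more. The median cycling cell had 13 UMIs of the 5 genes in each mouse, and the highest had 35 in mouse 1 and 64 in mouse 2.

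Cycling cells were rich in RNA. Their median total was 5172 UMIs in mouse 1 and 4969 in mouse 2, against 2589 and 2219 in the other cells, and their median number of detected genes was 2025 and 2019, against 1177 and 1065. The rule itself favours cells with more UMIs. The median mitochondrial share was 3.243% in cycling and 3.352% in other cells of mouse 1, and 2.204% and 2.920% in mouse 2. The doublet caller Scrublet marked 394 and 244 of the kept cells. It marked 3 of the cycling cells in mouse 1 and 1 in mouse 2, and all 4 carried the genes of more than 1 lineage.

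**Figure D1:**
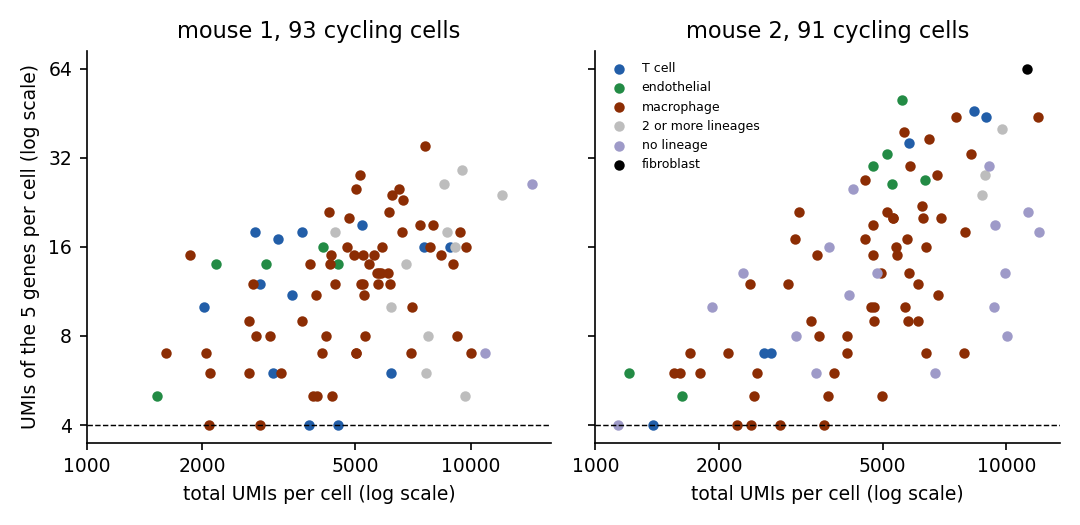
Each point is 1 cycling cell, with its total UMIs on the horizontal axis and its UMIs of Mki67, Top2a, Birc5, Ube2c and Cdk1 on the vertical axis, both on log scales, coloured by lineage, and the dashed line marks the threshold of 4 UMIs. Macrophage-lineage cells (62 and 57) make up most of the points in each mouse, and the single fibroblast-lineage cell of mouse 2 has the highest count, 64 UMIs.

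Most cycling cells were macrophages. The macrophage lineage gave 62 of the 93 cycling cells in mouse 1 (66.7%) and 57 of 91 in mouse 2 (62.6%), while it made up 43.5% and 40.3% of all kept cells. The T cell lineage gave 13 and 6 cycling cells, from a lineage that held 102 of 7015 and 89 of 5936 kept cells. The endothelial lineage gave 5 and 7 cells. Fibroblasts, 26.9% and 22.2% of kept cells, gave 0 and 1. The remaining cycling cells met no lineage rule (2 and 17) or more than 1 (11 and 3).

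Within the lineages, T cells had the highest cycling share in each mouse. In the T cell lineage 13 of 102 cells were cycling in mouse 1 (12.7%, exact Clopper-Pearson 95% interval 6.96 to 20.8) and 6 of 89 in mouse 2 (6.74%, 2.51 to 14.1). Their mean was 9.74% ± 4.25 (SD, n = 2). In the macrophage lineage 62 of 3052 cells were cycling in mouse 1 (2.03%, 1.56 to 2.60) and 57 of 2394 in mouse 2 (2.38%, 1.81 to 3.07), which averaged 2.21% ± 0.247 (SD, n = 2). The endothelial lineage stood lower, at 5 of 970 (0.515%, 0.168 to 1.20) and 7 of 1309 (0.535%, 0.215 to 1.10), on average 0.525% ± 0.0136 (SD, n = 2). No fibroblast of 1884 was cycling in mouse 1, where the exact 95% interval reaches 0.196%, and 1 of 1320 was in mouse 2 (0.0758%, 0.00192 to 0.421). The order T cell, macrophage, endothelial, fibroblast was the same in both mice. These intervals, and the limit that a count of 0 allows, cover counting error only.

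The ratios between lineages were as follows. The T cell share was 6.27 times the macrophage share in mouse 1 (95% interval 3.16 to 11.5) and 2.83 times in mouse 2 (0.998 to 6.55), so in mouse 2 the interval reached equality. The macrophage share was 3.94 times the endothelial share in mouse 1 (1.60 to 12.6) and 4.45 times in mouse 2 (2.03 to 11.6). Against fibroblasts the lower 95% limit of the macrophage ratio was 10.1 in mouse 1, where no fibroblast was cycling (12.8 with the empty count set to 3 cells), and the macrophage share was 31.4-fold higher in mouse 2 (5.42 to 1263). No test over mice was run, since 2 animals cannot reach a p below 0.05 in an exact permutation test.

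Depth differed between lineages, and a shallow cell can miss the 4 UMIs. The other cells of the endothelial lineage had median totals of 1480 and 1421 UMIs and those of the macrophage lineage 2825 and 2601. Each cell was therefore also thinned to 1000 UMIs, with cells of fewer UMIs left out (122 and 406) and cycling set at 2 or more UMIs of the 5 genes. The thinned shares were 8.91% and 7.95% for T cells, 1.31% and 1.96% for macrophages, 0.653% and 0.713% for endothelial cells and 0 and 0.0781% for fibroblasts. The order of the lineages was again the same in both mice, while the distance between macrophages and endothelial cells narrowed.

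**Figure D2:**
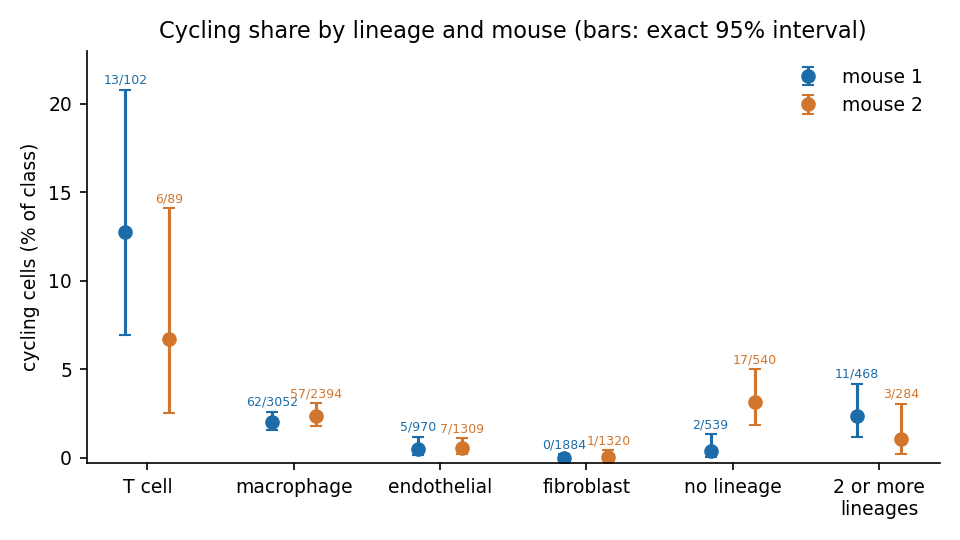
The vertical axis gives cycling cells as a percentage of each class and the horizontal axis the class, with 1 point per mouse, bars for the exact 95% interval and the counts above each point. The T cell points (12.7% and 6.74%) lie above the macrophage points (2.03% and 2.38%) in each mouse, and the intervals of the mice overlap in the 4 lineages but not in the cells with no lineage.

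Cycling macrophages carried the markers of their lineage that the rule had not used. In mouse 1 all 62 held at least 13 UMIs of a list of 10 macrophage markers (among them the growth factor receptor Csf1r, Adgre1, Mrc1 and Cd68), with a median of 63 UMIs per cell, and in mouse 2 the 57 cells held at least 10, with a median of 52. Csf1r itself was seen in 96.8% and 84.2% of them. Their C1q sums had medians of 85 and 76 UMIs per cell, well inside the threshold of 15, and 3 and 5 cells lay under 30. Markers of other types were low beside these, with some differences from the other macrophages. The 10 fibroblast markers summed to 370 and 420 CPM (UMIs of the summed cells scaled to a common library total) in cycling macrophages and 418 and 428 in the others. The 10 endothelial markers summed to 309 and 285 CPM against 441 and 455. Cardiomyocyte markers were higher than both lists in mouse 1, at 898 CPM in cycling macrophages and 641 in the others. Of the 7 cardiomyocyte markers tested, 0 were called in either direction. The T cell markers gave 6.17 and 51.2 CPM against 9.47 and 11.2, so they were higher in the cycling cells of mouse 2, on 14 UMIs in 6 cells. Of the markers of other types tested in the gene-level fit described below, Cd2 (1 and 9 UMIs) and Klrd1 (9 and 3 UMIs) were called higher and Fabp4 (-1.06 ± 0.16) was among those called lower. The part of other cell types in these values was not tested.

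The cycling T cells carried Lck, the kinase of T cell receptor signalling, in 12 of 13 cells of mouse 1 and 6 of 6 of mouse 2. The cytotoxic granule gene Nkg7 was seen in 11 of 13 and 6 of 6, beside 71.9% and 72.3% of the other T-lineage cells. Cd4 was seen in 3 and 2 of the cycling cells and Cd8a in 2 and 0, so most could not be placed in either branch. Markers of natural killer and innate lymphoid cells, Nkg7 among them, summed in mouse 1 to 1477 CPM in cycling and 2057 in other T-lineage cells. The T cell markers summed there to 1073 and 2116 CPM. Whether some of these cells are of a natural killer or innate lymphoid type was not tested. The Trac, Trbc1 and Trbc2 genes of the receptor were not analysed here. The macrophage markers summed to 703 and 404 CPM in these cells, against 620 and 825 in the other T-lineage cells.

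The endothelial markers were strong in the 12 cycling endothelial cells, at 24201 and 15101 CPM against 29564 and 31263 in the other endothelial cells. Per cell this list held between 9 and 151 UMIs. The lowest cell was also the shallowest, with 1209 UMIs in all. Markers of mural cells came to 65.6 and 0 CPM and those of macrophages to 984 and 435 CPM, the latter beside 776 and 664 in the other endothelial cells. The single cycling fibroblast, in mouse 2, had 11228 UMIs, 117 UMIs of Dcn, 132 UMIs of the 10 other fibroblast markers and none of the endothelial or T cell lists.

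Cells that met no lineage rule were cycling in 2 of 539 cases in mouse 1 (0.371%, 95% interval 0.0450 to 1.33) and 17 of 540 in mouse 2 (3.15%, 1.84 to 4.99), the one class whose intervals did not overlap between mice. The 19 cycling cells of this class carried marker genes of several other cell types. In 8 of them (2 in mouse 1, 6 in mouse 2) at least 2 UMIs of Xcr1 and Clec9a were found, receptors that mark cross-presenting dendritic cells. These 8 were among the deepest cells, with 9067 to 14423 UMIs each. They also held 14 to 37 UMIs of Irf8, the transcription factor of that branch, and 7 to 23 of Naaa, neither of which was on the marker lists. They carried 2 to 7 C1q UMIs, under the macrophage threshold. Another 2, in mouse 2, had 15 and 12 UMIs of Cd209a, a gene of a second dendritic branch. In mouse 2, 1 cell had 81 UMIs of the granzyme Gzma, 1 had 152 UMIs of the endothelial list with a single UMI of the 3 endothelial rule genes, and 7 had 4 to 12 C1q UMIs with 13 to 53 UMIs of the macrophage list. Irf8, Naaa and Gzma were picked after the values were seen.

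Cells with Xcr1 and Clec9a had high cycling shares. Among all kept cells with at least 2 UMIs of Xcr1 and Clec9a, 2 of 8 were cycling in mouse 1 (95% interval 3.19% to 65.1%) and 6 of 22 in mouse 2 (27.3%, 10.7 to 50.2). These cells had median totals of 6647 and 8203 UMIs, above the medians of 2589 and 2219 in all cells that were not cycling, and the part of depth in these shares was not tested. With at least 2 UMIs of Cd209a, 3 of 19 were cycling in mouse 1 (95% interval 3.38% to 39.6%) and 2 of 25 in mouse 2 (0.984% to 26.0%). In mouse 1 these 3 were a macrophage-lineage cell, a T-lineage cell and a called doublet, and none of the 9 Cd209a cells with no lineage was cycling. No cell with at least 3 UMIs of the mural genes Rgs5, Kcnj8 and Vtn was cycling, of 162 and 128, where the 95% intervals reach 2.25% and 2.84%. No cell with at least 10 UMIs of the neutrophil genes S100a8 and S100a9 was cycling, of 114 in mouse 1 (95% interval up to 3.18%) and 3 in mouse 2. These groups were defined after the lineage results had been seen.

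Of the 14 cycling cells that met more than 1 lineage rule, 12 met the macrophage rule beside another. Most often the partner was the endothelial rule, in 5 cells of mouse 1 and 1 of mouse 2. Such cells had median totals of 8515 and 8887 UMIs, above those of every single lineage with more than 1 cycling cell. Whether each is 1 cell or a pair was not tested beyond the doublet call, which marked 4 of the 14.

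The stage of the cycle was read from lists that share no gene with the rule. DNA replication and nucleotide synthesis genes (68 in the tables) stood for S phase, and kinetochore, spindle, cytokinesis and mitotic exit genes (62, without the abundant tubulins and Stmn1, a choice made after the values were seen) for mitosis. Over all cycling cells the S-phase lists held 40.9% of the UMIs of both sets in mouse 1 and 34.4% in mouse 2. With tubulins and Stmn1 kept in the mitosis set, these shares were 26.4% and 22.2%. Single cells ranged from 2.53% to 86.3% in mouse 1 and from 3.48% to 83.1% in mouse 2, and 30 and 24 cells had more S-phase than mitosis UMIs.

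Lineages differed in this balance as a description. Macrophages stood at 38.3% and 38.0%, T cells at 54.9% and 30.5%, and endothelial cells at 14.6% and 14.3%, with 1 of the 12 endothelial cells above 50%. These are shares of summed UMIs, in which cells with many such UMIs weigh most. The medians per cell were 36.9% and 37.6% in macrophages, 50.8% and 44.9% in T cells and 22.4% and 7.14% in endothelial cells. Among T cells, 7 of 13 and 3 of 6 lay above 50%. The fibroblast stood at 6.22%, with 437 mitosis UMIs and 29 S-phase UMIs. All 5 rule genes are highest in G2 phase and mitosis, so the rule itself favours these stages.

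**Figure D3:**
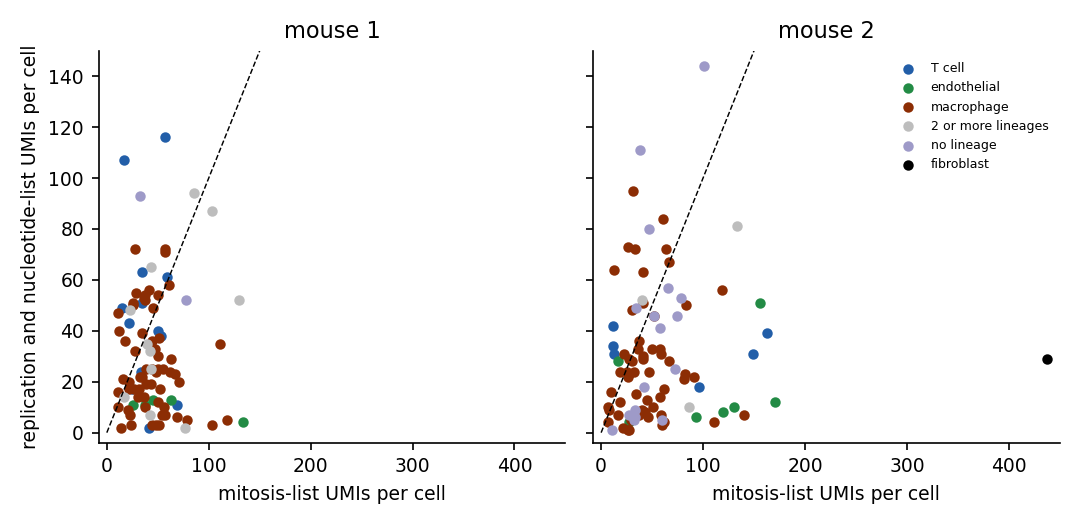
Each point is 1 cycling cell, with UMIs of the 62 mitosis genes on the horizontal axis and UMIs of the 68 replication and nucleotide genes on the vertical axis, coloured by lineage, and the dashed line marks equal counts. Endothelial points lie mainly below the line, macrophages spread to both sides of it, and the fibroblast sits far to the right with 437 mitosis UMIs.

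Among macrophages, the 62 and 57 cycling cells could be set against 2990 and 2337 others of the same mice. UMIs were summed per mouse and state and compared with edgeR, with the mouse as a block, so that 4 summed libraries left 1 residual degree of freedom and the calls rest on a spread shared across genes. A gene was called at an adjusted p below 0.05 and a log2 fold change of at least 1 in size. Of 10262 genes tested, 561 were higher in cycling macrophages (5.47%) and 220 lower (2.14%), and the median log2 fold change of all genes was -0.08. Without the TMM scaling of library sizes, that median was 0.17, and the split became 699 higher (88.0% of calls, against 71.8%) and 95 lower.

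Cell-cycle genes filled the upper end, which the choice of cells fixes in advance. In the 7 cycle lists 158 of 183 tested genes were called higher and 1 lower. All 28 kinetochore and spindle checkpoint genes and all 26 spindle motor, tubulin and cytokinesis genes were called higher, with median log2 differences of 5.80 and 5.77. DNA replication (46 of 53, median 2.41) and nucleotide synthesis (8 of 14, median 1.79) followed at smaller differences. Stmn1, a regulator of microtubules, stood at 2292 and 2599 CPM in cycling macrophages and 60.6 and 69.7 in the others. Hmgb2, a chromatin protein, stood at 1678 and 2113 CPM against 91.2 and 135. Hmgb2 was found in 100.0% of cycling macrophages in each mouse, beside 22.4% and 28.3% of the others.

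Some cycle genes differed less in CPM than Stmn1 and Hmgb2. Pcna, the sliding clamp of DNA replication, stood at 219 and 205 CPM in cycling macrophages against 45.5 and 41.3, and was seen in 12.3% and 10.4% of the other macrophages. The D-type cyclins, which act at the entry to the cycle, did not follow the rest. Ccnd2 was the one cycle-list gene called lower, with 24 and 13 UMIs in cycling cells and a log2 fold change of -1.02 ± 0.23 (SE, edgeR adjusted p = 0.00221). This call was lost in 8 of 10 alternative settings, among them RLE scaling, other cells limited in total UMIs, no TMM (-0.76) and DESeq2. Ccnd1 stood at a log2 difference of -0.77 ± 0.23 (edgeR adjusted p = 0.0295, under the fold required) and Ccnd3 at -0.13 ± 0.19 (edgeR adjusted p = 0.752). The D-type cyclins other than Ccnd2 were picked after their values were seen.

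The promoters of 3 of the 5 genes used to pick the cells are shown as examples of short motifs long tied to cell-cycle control. The window runs from 250 bases before to 50 bases after the start site in RefSeq (GRCm38.p6). Capitals mark TTTGAA, the core of the cell-cycle homology region, CCAAT, and the E2F-type words TTTCCCGC, TTTCGCGC, TTTGCCGC and TTTGGCGC, searched on both strands, with overlapping matches counted separately.
Cdk1 promoter, chr10:69352863-69353162, minus strand: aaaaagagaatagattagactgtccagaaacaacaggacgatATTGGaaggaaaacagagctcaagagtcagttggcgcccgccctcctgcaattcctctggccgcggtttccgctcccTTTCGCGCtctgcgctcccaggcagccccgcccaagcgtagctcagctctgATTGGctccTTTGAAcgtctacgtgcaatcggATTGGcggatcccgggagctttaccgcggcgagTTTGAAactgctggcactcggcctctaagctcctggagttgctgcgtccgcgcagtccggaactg
Top2a promoter, chr11:99024140-99024439, minus strand: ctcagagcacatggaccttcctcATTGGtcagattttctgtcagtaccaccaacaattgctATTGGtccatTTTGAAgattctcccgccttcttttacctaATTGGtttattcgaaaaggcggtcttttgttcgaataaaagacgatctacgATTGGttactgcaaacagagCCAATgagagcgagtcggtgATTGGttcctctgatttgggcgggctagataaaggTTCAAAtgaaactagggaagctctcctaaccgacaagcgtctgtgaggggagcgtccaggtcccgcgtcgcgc
Ube2c promoter, chr2:164769679-164769978, plus strand: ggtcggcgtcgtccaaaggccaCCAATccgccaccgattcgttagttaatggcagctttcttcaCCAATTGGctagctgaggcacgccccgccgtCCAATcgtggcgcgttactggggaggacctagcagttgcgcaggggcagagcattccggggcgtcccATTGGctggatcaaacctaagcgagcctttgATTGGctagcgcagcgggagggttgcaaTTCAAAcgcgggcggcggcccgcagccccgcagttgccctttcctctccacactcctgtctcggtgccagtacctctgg
The Cdk1 window held 2 TTTGAA, 3 CCAAT and 1 E2F-type word, Top2a held 2 TTTGAA and 6 CCAAT, and Ube2c held 1 and 6. Of the other rule genes, Mki67 held 2 TTTGAA and 3 CCAAT, while the Birc5 window held none of these words. Of all 32851 mouse promoters in the table, 17.9% held TTTGAA, 37.4% CCAAT and 2.26% an E2F-type word.

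The lists differed by motif. Of the 27 promoters found for the spindle motor, tubulin and cytokinesis list, 21 held TTTGAA (77.8%), and of the 47 for DNA replication, 7 did (14.9%). For E2F-type words it was the reverse, with 2 of 27 (7.41%) and 17 of 47 (36.2%). Promoters were matched for 144 of the 186 cycle genes. A match is a description of letters, and the binding of any factor was not measured.

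Outside the cycle lists, 403 of 10079 genes were higher and 219 lower. The largest rises were again genes of division. Hist1h2ap, a histone made during DNA synthesis, had 318 and 419 UMIs in cycling macrophages (981 and 1532 CPM) against 8.70 and 8.11 CPM in the others, a log2 fold change of 6.92 ± 0.18 (edgeR adjusted p = 1.43e-19). Aspm, which organises spindle poles, had 21 UMIs in each mouse, and Melk, a mitotic kinase, 18 and 23. Lockd, a transcript beside the inhibitor gene Cdkn1b, stood at 207 and 267 CPM against 1.43 and 2.18, a log2 fold change of 6.78 ± 0.28 (edgeR adjusted p = 1.80e-15).

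Inhibitors of cyclin-dependent kinases were not lower as a group. Of the 17 tested genes of the list of inhibitors and quiescence genes, 4 rose and 1 fell, beside 5.47% and 2.14% of all genes tested. Cdkn2c, an inhibitor of Cdk4 and Cdk6, had 108 and 119 UMIs, or 333 and 435 CPM, in cycling macrophages against 19.2 and 39.6 CPM, a log2 fold change of 3.52 ± 0.17 (edgeR adjusted p = 2.57e-14). It was found in 74.2% and 73.7% of cycling macrophages and 5.52% and 10.1% of the others. Cdkn2d, Cdkn2a and the pocket protein gene Rbl1 also rose, by log2 2.09 ± 0.19, 2.05 ± 0.34 and 2.35 ± 0.45. Cdkn1a, which encodes p21, stood at 938 and 892 CPM against 483 and 360, a log2 difference of 0.88 ± 0.13 (edgeR adjusted p = 1.35e-05) that missed the fold required. It passed when the other cells were limited to totals in the range of most cycling cells (1.05) and without TMM (1.13). Klf2, a transcription factor of resting cells, fell from 875 and 1161 CPM to 395 and 413, a log2 fold change of -1.56 ± 0.13 (edgeR adjusted p = 1.68e-09).

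Growth genes were called about as often as all genes. Of 26 tested genes of growth and ribosome biogenesis, 2 rose and 1 fell, beside 5.47% and 2.14% of all genes tested. The list's median log2 difference was -0.02. The risers were Ran (722 and 695 CPM against 227 and 181, 1.55 ± 0.13) and its partner Ranbp1 (1.18 ± 0.13), a pair that guides nuclear transport and spindle assembly. Npm1, a nucleolar chaperone, differed by 0.24 ± 0.14 (edgeR adjusted p = 0.323). Myc fell on 3 and 2 UMIs in cycling cells (-1.81 ± 0.53). Of 22 glycolysis and respiration genes none rose and 2 fell, with Aldoa at -1.31 ± 0.16 and Hk2, on 6 and 1 UMIs, at -2.04 ± 0.45.

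Genes of resident macrophage identity made up a smaller part of the RNA of cycling macrophages. Of 13 tested genes of the resident list, 8 fell and none rose, beside 2.14% and 5.47% of all genes tested. All 13 had negative differences, and the median was -1.15. Folr2, a folate receptor of resident cells, stood at 562 and 541 CPM in cycling cells against 1091 and 1177 in the others (-1.28 ± 0.13, edgeR adjusted p = 1.86e-08). Lyve1, with 195 and 56 UMIs, changed by -1.45 ± 0.15 and Timd4, with 13 and 11, by -1.48 ± 0.26. F13a1 and the scavenger receptor Cd163 changed by -1.15 ± 0.13 and -1.17 ± 0.15. Cd209f had 0 UMIs in the cycling cells of either mouse, where its level was at least 3.05-fold lower with 3 counts over both mice as the floor. Without TMM 5 of the 13 fell, and without the mouse block 4 did.

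The general macrophage genes leaned the same way. Of the 10 macrophage markers, 3 fell and none rose, beside 2.14% and 5.47% of all genes tested. Lyz2, a lysozyme and among the most abundant transcripts of these cells, stood at 10446 and 9673 CPM against 21529 and 22418 (-1.37 ± 0.11, edgeR adjusted p = 3.60e-10). Cd163, already named among the resident genes, and Ms4a7 (-1.06 ± 0.15) were the others. Csf1r at -0.81 ± 0.13, Adgre1 at -0.96 ± 0.15 and Mrc1 at -0.46 ± 0.13 did not reach the fold required, and Cx3cr1, with 26 and 41 UMIs, stood at 0.24 ± 0.22. Apoe, a lipid carrier, fell from 30817 and 28846 CPM to 13649 and 11589 (-1.49 ± 0.11, edgeR adjusted p = 7.51e-11). With it 3 further genes of the 24 for lysosome and uptake fell, namely Ctss, Ctsl and Fcgr3, while none rose. Without TMM, Lyz2 was the only one of the 10 markers that fell.

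These are shares of a cell's RNA, and cycling cells held more RNA. Per cell, Lyz2 averaged 54.6 and 46.4 UMIs in cycling macrophages against 65.4 and 61.5 in the others, and Apoe 71.4 and 55.6 against 93.6 and 79.2, so both were lower on this scale too. Folr2 averaged 2.94 and 2.60 UMIs per cell against 3.31 and 3.23. Csf1r averaged 2.90 and 2.61 against 2.26 and 2.46, F13a1 4.37 and 2.30 against 3.93 and 3.08, and C1qa, a gene of the rule, 30.6 and 26.6 against 25.8 and 21.4. The fall in CPM was therefore accompanied by fewer UMIs per cell for Lyz2, Apoe and Folr2 in both mice, but not for Csf1r. When the other macrophages were limited to totals in the range of most cycling cells, 553 genes were called higher and 208 lower, and 9 of the 13 resident genes fell. Their median totals, 3433 and 3059 UMIs, still lay below the 5161.5 and 4771 of the cycling macrophages.

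Chemokines and stress genes were lower as well. Over all genes tested, 2.14% fell and 5.47% rose. Of 13 macrophage chemokines 5 fell and none rose. Ccl6 stood at 1879 and 925 CPM in cycling macrophages against 4774 and 2427 (-1.62 ± 0.12, edgeR adjusted p = 5.66e-11), and Ccl8, Ccl12, Ccl7 and Ccl9 fell by 1.78, 1.35, 1.06 and 1.02 on the log2 scale. For Ccl8 the gap was wide in mouse 1 (157 against 738 CPM) and narrow in mouse 2 (128 against 158). Without the mouse block 1 chemokine was called. Of 17 immediate early and heat shock genes, which tissue digestion is known to induce, 5 fell and none rose, with Junb at -1.45 ± 0.15 and Ier2 at -1.19 ± 0.18. The steepest fall among named genes outside the lists was Retnla, a secreted protein of alternatively activated macrophages, from 489 and 1443 CPM to 27.8 and 249 (-3.16 ± 0.21, edgeR adjusted p = 1.07e-11). It rested on 9 and 68 UMIs in cycling cells, and was seen in 9.68% and 15.8% of them, against 11.9% and 21.0% of the others. The neutrophil marker S100a8 was called lower (-2.41 ± 0.32), but only mouse 1 went that way, with 49.4 CPM in cycling and 257 in other macrophages, while in mouse 2 the level was higher in cycling cells, on 3 UMIs, than the 6.55 CPM of the others. S100a9 showed the same split, with 46.3 against 195 CPM in mouse 1 and 3.66 against 2.18 in mouse 2. All 6 neutrophil markers summed to 117 CPM in cycling and 536 in other macrophages of mouse 1, and to 21.9 and 33.7 in mouse 2. Their part in the other results was not tested.

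**Figure D4:**
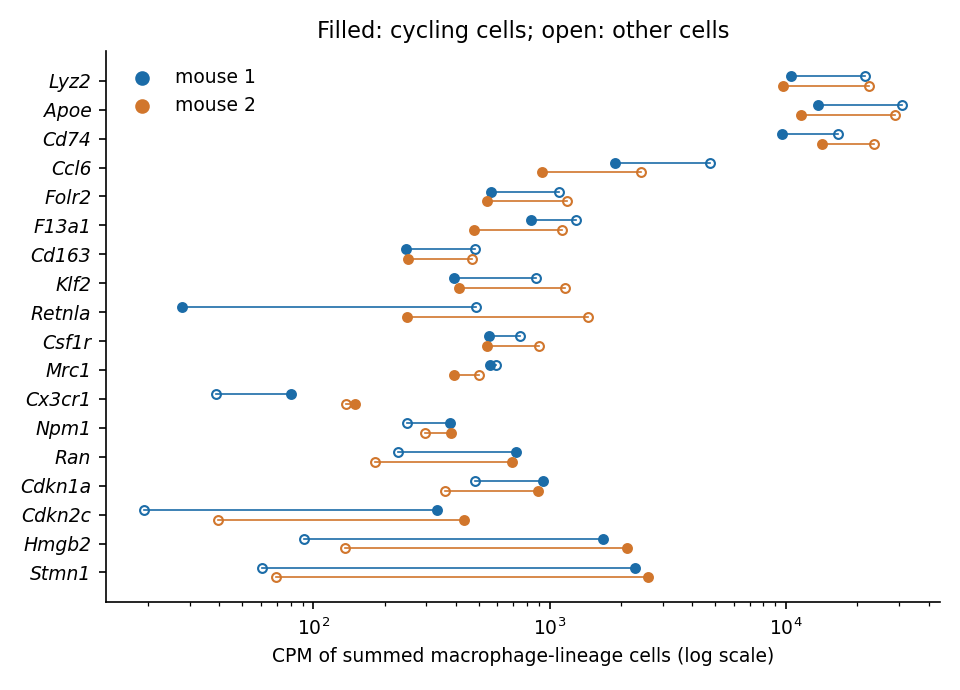
The horizontal axis gives CPM on a log scale for 18 named genes of summed macrophage-lineage cells, with filled points for cycling and open points for other cells, joined by a line within each mouse. Lyz2, Apoe and Retnla have their filled points to the left in each mouse, and Cdkn2c, Hmgb2 and Stmn1 have them far to the right.

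Antigen presentation genes were near the limit of the call. Cd74, the invariant chain, stood at 9623 and 14111 CPM against 16528 and 23437, a fall just past the log2 fold change of 1 required (SE 0.11, edgeR adjusted p = 1.01e-07). It was the only 1 of 8 MHC class II genes called, and 7 of the 8 had negative differences. Under 8 alternative settings Cd74 stayed under the fold required, at -0.76 without TMM and -0.90 against other cells limited in total UMIs. Per cell it averaged 50.3 and 67.7 UMIs in cycling and 50.2 and 64.3 in other macrophages.

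**Figure D5:**
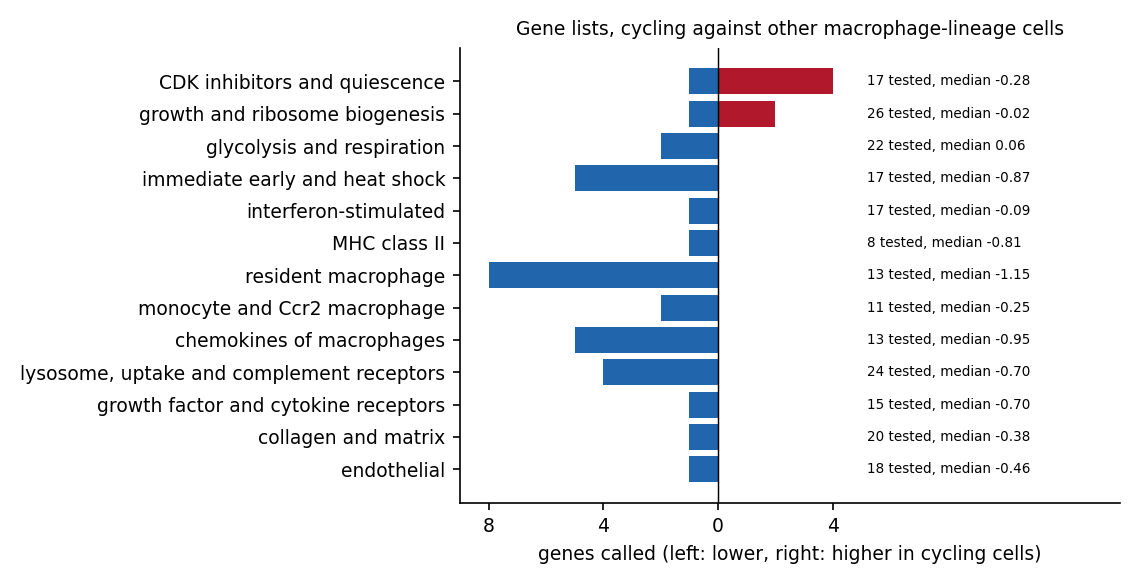
For each gene list outside the cycle lists, bars to the left give the number of genes called lower and bars to the right the number called higher in cycling macrophages, with the number tested and the median log2 difference beside them. The resident macrophage list has 8 of 13 genes lower, the inhibitor and quiescence list has 4 of 17 higher, and most lists have none higher.

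Cycling occurred in every macrophage subset examined. Of macrophage-lineage cells with a UMI of Timd4, Lyve1 or Folr2, 47 of 2505 were cycling in mouse 1 (1.88%, 95% interval 1.38 to 2.49) and 39 of 1788 in mouse 2 (2.18%, 1.56 to 2.97), and of those without, 15 of 547 (2.74%, 1.54 to 4.48) and 18 of 606 (2.97%, 1.77 to 4.65). With a UMI of Ccr2, the chemokine receptor of recruited cells, 8 of 278 (2.88%, 1.25 to 5.59) and 11 of 212 (5.19%, 2.62 to 9.09) were cycling, and without it 54 of 2774 (1.95%, 1.47 to 2.53) and 46 of the rest in mouse 2 (2.11%, 1.55 to 2.80). Deep cells more often show a UMI of any gene. After thinning, 1 of 136 cells with Ccr2 (0.735%, 0.0186 to 4.03) and 3 of 105 (2.86%, 0.593 to 8.12) were cycling, against 1.34% and 1.92% without it, too few cells to give a direction. For Timd4, Lyve1 or Folr2, thinning gave 1.00% and 1.29% with and 2.11% and 3.09% without. Cells above the median share of MHC class II UMIs stood at 1.90% and 1.34% and those below at 2.16% and 3.43%, and after thinning at 1.20% and 1.22% against 1.42% and 2.67%. The median was taken within each mouse, at a share of 0.391% in mouse 1 and 1.68% in mouse 2 before thinning. The classes above and below it are therefore not the same in the 2 mice.

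For the endothelial and T cell lineages the number of cycling cells was below the minimum of 10 in at least 1 mouse, so they entered only a joint fit of 3 lineages that was chosen after the counts were seen (5565 genes, 12 summed libraries). This fit left 3 residual degrees of freedom, and its spread was shared across genes and across the 3 lineages. The cycling endothelial cells summed to 15247 and 29865 UMIs and the cycling T cells to 56871 and 29678, so many genes had few UMIs in them. In the endothelial lineage 162 genes were called higher (2.91%) and 249 lower (4.47%), with a median of -0.67 over all genes. In the T cell lineage 101 were higher (1.81%) and 94 lower (1.69%), with a median of -0.30. The same fit called 417 genes higher (7.49%) and 159 lower (2.86%) in macrophages.

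Endothelial identity genes were mostly lower in the joint fit, which is TMM-scaled. In it 15 of the 21 tested genes of the endothelial list fell, with a median of -1.83. Over all genes tested in this lineage, 4.47% fell and the median was -0.67. Per cell, the 10 endothelial markers were not lower in mouse 1. Their median was 71 UMIs in the 5 cycling cells and 45 in the others. For mouse 2 this median is not given here. Its cycling endothelial cells had a median total of 5119 UMIs against 1421 in the others. Lower CPM there need not mean fewer marker UMIs per cell. Cldn5, a tight junction gene, stood at 1115 and 1138 CPM in cycling cells against 524 and 838, with a fitted log2 difference of 0.01 ± 0.26 (edgeR adjusted p = 0.997). CPM are not TMM-scaled, which is why the fitted value is below their ratio. The scaling lowers the fitted values of the other endothelial genes as well. A fit of this lineage without TMM was not run, so how many of these calls depend on the scaling was not tested. Fabp4, a fatty acid carrier of capillaries, stood at 18561 and 11318 CPM against 22530 and 24450 (-1.40 ± 0.27, edgeR adjusted p = 7.46e-06). Flt1 and Kdr, the receptors for vascular endothelial growth factor, changed by -3.12 ± 0.44 and -1.83 ± 0.44 on 7 UMIs or fewer of each gene in each mouse, and of the 10 markers 7 were called lower. Kdr stood at 459 against 467 CPM in mouse 1 and 100 against 524 in mouse 2, so only mouse 2 showed a clear gap. Cxcl12, a chemokine, had 3 and 1 UMIs, or 197 and 33.5 CPM, against 1071 and 1297 CPM in the other endothelial cells (-4.42 ± 0.47, edgeR adjusted p = 1.38e-18). With so few UMIs, this p rests on the shared spread of the joint fit and does not measure the spread between the mice. Cdkn2c rose here as in macrophages, on 11 and 21 UMIs (721 and 703 CPM against 12.5 and 16.9, log2 4.89 ± 0.48). The lymphatic chemokine gene Ccl21a had no UMI in the cycling cells and 727 and 3254 UMIs (431 and 1569 CPM) in the others, where they came from 19 and 53 cells. It was at least 15.9-fold lower with 3 counts over both mice as the floor, but with 12 cycling cells so rare a source could be missed.

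In cycling T cells Stmn1 had 134 and 64 UMIs and a log2 difference of 3.37 ± 0.31, and Hmgb2, at 315 and 226 UMIs, 2.55 ± 0.26. Cdkn2c rose on 12 and 10 UMIs (2.08 ± 0.57, edgeR adjusted p = 0.00998) and Ran on 53 and 34 (1.16 ± 0.30). Of the T cell markers tested, 2 of 7 fell, Lck (-1.41 ± 0.30) and Cd2 (-1.25 ± 0.38), and none rose. Over all genes tested in this lineage, 1.69% fell and 1.81% rose. Klf2 fell on 25 and 1 UMIs (-1.53 ± 0.39). The chemokine gene Ccl4 had no UMI in cycling T cells and was at least 7.68-fold lower, and Dapl1 at least 5.78-fold lower.

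The difference between lineages was tested in the same joint fit. Against macrophages, the cycling effect was larger in endothelial cells for 6 genes (0.108%) and smaller for 45 (0.809%), and in T cells larger for 1 gene (0.018%) and smaller for 21 (0.377%). Of these, 8 and 6 genes were on the cycle lists. Cxcl12 is an example outside them, at -4.42 in the endothelial and 0.33 in the macrophage lineage, a difference of -4.75 ± 0.87 (edgeR adjusted p = 5.79e-05).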

How the data were processed

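Single cells from the ventricles of 2 mice, 1 library each, were profiled with the 10x 3' v2 chemistry. The authors deposited counts, which are raw UMI counts per gene symbol and barcode, and made them with Cell Ranger 2.2.0 on build mm10, per the submitters' processing notes. The rule for calling barcodes and the annotation are not given in the sources used here. Members, lineages and gene lists were chosen with earlier results of these data known. Doublets were called with Scrublet in scanpy 1.11.5 and not removed. UMIs were summed per mouse, lineage and state and tested with edgeR 4.0.16 (R 4.3.3), using TMM scaling, filterByExpr, quasi-likelihood F tests and Benjamini-Hochberg adjustment over all genes tested. The mouse was a replicate block, since cycling and other cells come from the same animals. The 15 genes of the rule stayed in library totals but out of tests. On simulated data, 33.0% of 2-fold and 95.0% of 4-fold changes among 9817 genes were recovered, with 0 false calls. The simulation gave all genes the same spread, no mouse effect, and as many rises as falls among well-counted genes. These settings differ from the data, so it gives no error rate for the calls reported here. DESeq2 1.42.0 was an alternative. The joint fit, classes by Xcr1 and Clec9a, and library totals without TMM were added after the data were seen. Named genes were up to 4 per list by CPM in cycling macrophages, the 12 highest and 8 lowest called genes outside the lists with at least 50 CPM, and the lineage markers. Further genes named from a list are those called in it. Of 120 marker genes, 5 were not analysed here. Gene counts were not split by strand or copy, so histone genes and other near-identical copies are uncertain. Errors of log2 fold changes are SE from the F statistic.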

Additional observations from a re-analysis of the deposited data

Results flagged for a closer look

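These genes had a cycling effect that differed between lineages in the added joint fit (edgeR, adjusted p below 0.05, difference of at least 1 on the log2 scale), among genes of the lists outside the cycle or named by the rule. Values are log2 differences against the effect in macrophages. In the endothelial lineage the difference was -1.63 for Cd36, -2.88 for Cdkn1a, -4.75 for Cxcl12, -3.06 for Fos, -2.59 for Junb, -2.09 for Lpl and -2.65 for Rgcc. It was 4.73 for Gas2l3. Cdkn1a stood at -1.98 in cycling endothelial cells and 0.90 in cycling macrophages, so the directions were opposite. In the T cell lineage the difference was -3.31 for Cd2, -4.04 for Lockd and 1.74 for H2-Ab1. For Ccl4 it was -11.70, a fitted value with no UMI in cycling T cells. Cd2 rested on 1 and 9 UMIs in cycling macrophages.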

How the results depend on the processing

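Cycling shares kept their order (T cell, macrophage, endothelial, fibroblast) as means over mice in the settings tried. For all cells, the mean of 1.43% became 1.77% at 2 or more UMIs, 1.28% at 6 or more and 1.15% after thinning to 1000 UMIs. For macrophages it became 2.62% at 2 or more UMIs and 1.64% after thinning. The fibroblast mean of 0.0379% became 0.171% with cells of several lineages counted in each. The endothelial mean of 0.525% became 0.833%, 0.718% and 0.435% at 2, 3 and 6 or more UMIs, 0.584% with cells of at least 1000 UMIs, 0.661% at a mitochondrial limit of 5%, 0.848% with cells of several lineages counted in each and 0.683% after thinning.

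Of macrophage-lineage genes, 561 were higher and 220 lower. DESeq2 called 370 higher and 73 lower, and library totals without TMM gave 95 lower. With no fold floor 547 were lower. Leaving the replicate block out gave 428 higher and 96 lower, and 14 of 40 listed genes lost their call (Ccl7, Ccl8, Ccl9, Ccl12, Ccnd2, Cd74, Cd209f, Igf1, Il4ra, Lyve1, Myc, Plac8, Timp3 and Vsig4), as did Clec4n, Hspb1, Mt2 and Il1b outside the lists. In single mice, 526 to 544 of the genes called higher kept a log2 ratio of at least 1 in size, and 173 to 180 of those called lower. The calls came from these same mice and no new fit was made, so this is not an independent check. Single-mouse shares span 1.33 to 1.53% for all cells, 2.03 to 2.38% for macrophages, 0 to 0.0758% for fibroblasts, 0.515 to 0.535% for endothelial cells and 6.74 to 12.7% for T cells.

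For 109 named genes, 1047 of 1088 tested values kept direction and call, and the 11 that changed sign belonged to uncalled genes. Without TMM these were Eif4a1 (0.0890), Ifi27l2a (0.13), Rtp4 (0.16), S100a6 (0.0717), Sparc (0.20) and Lpl (0.0689). Without the filter they were Atp5j (-0.0207) and Hspa8 (-0.0157), at 6 or more UMIs Atp5j (-0.0191) and Sparc (0.0464), and without doublets Sparc (0.37). In macrophages, Fabp4 fell short of the call without doublets (-0.67). The cause of these changes was not tested. With 5 to 13 cycling cells per mouse in the endothelial and T cell lineages, depth limits what could be called there.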

Other observations

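Some cells under the rule carried many S-phase UMIs. At least 10 UMIs of the 68 replication and nucleotide genes were found in 94 of 6922 other cells in mouse 1 (1.36%) and 78 of 5845 in mouse 2 (1.33%), beside 76 of 93 and 66 of 91 cycling cells. In the T cell lineage these were 6 of 89 and 6 of 83 other cells, and in the macrophage lineage 35 of 2990 and 34 of 2337. In fibroblasts they were 13 of 1884 and 6 of 1319, more than the 0 and 1 that met the rule. The cells of more than 1 lineage had 31 of 457 and 15 of 281, at median totals of 4781 and 3959 UMIs. These counts are not adjusted for depth.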
